A study of Mus musculus with 12 samples.

Results

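The gene Cfd, which encodes complement factor D and is also called adipsin, was followed through 12 mouse liver RNA-seq libraries. It was chosen by its symbol (identifier ENSMUSG00000061780), for its very low level after treatment with pregnenolone 16α-carbonitrile (PCN), and is 1 of 26031 gene identifiers with counts in some library. The values that chose it are those of the PCN livers, so every comparison that includes PCN livers is given as a description, with no test. A low level is judged against other livers, whose values may thus have had a part in the choice. Tests among the other groups reuse those livers and are not wholly free of it. The 4 groups held 3 liver samples of C57BL/6N mice each. The HFD PCN group (replicates 5, 11 and 27) ate a high-fat diet and received 50 mg/kg PCN into the peritoneum once daily for 4 days. The HFD vehicle group (15, 23 and 55) ate the same diet and received 30% DMSO in corn oil on the same schedule. The HFD group (4, 30 and 38) ate the diet and is labelled with no treatment, and the Chow group (8, 17 and 19) ate regular chow and is likewise labelled untreated. The diets began at 6 weeks of age and lasted 15 weeks. PCN is a synthetic steroid ligand of PXR, the pregnane X receptor of rodents, which as a nuclear receptor controls genes of drug metabolism and transport. The labels do not say whether samples of 1 group came from separate cages or cohorts, so p-values measure only the spread between these samples.

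Factor D is a serine protease of the alternative pathway of complement. It cleaves factor B once factor B has bound an activated fragment of C3, and the complex formed then cleaves more C3. In mice the main source of adipsin is the fat cell, and its gene is a target of PPARγ, the nuclear receptor of fat cell formation. Adipsin expression in fat is known to be low in some mouse models of obesity.

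Cfd spans 1803 bases of mouse chromosome 10, on the plus strand of GRCm38, written chr10:79890853-79892655. GENCODE lists 2 transcripts, each with 5 exons, of 922 and 871 bases, and 0 other genes overlap it, so no antisense or overlapping gene shares its reads. The 250 bases before the start of the RefSeq gene (GRCm38.p6, chr10:79890603-79890852, plus strand) are shown because they are the part of the locus where a factor that binds next to the gene would be sought. Capitals mark the hexamer GGTTCA, 1 of the 4 forms searched of the half-site that nuclear receptors bind as pairs.

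Cfd promoter: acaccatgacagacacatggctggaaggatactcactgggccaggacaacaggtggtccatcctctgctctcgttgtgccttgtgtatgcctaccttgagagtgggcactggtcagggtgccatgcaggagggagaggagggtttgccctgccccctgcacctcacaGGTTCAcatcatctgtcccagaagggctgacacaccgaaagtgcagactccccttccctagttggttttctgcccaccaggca

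The hexamer begins 83 bases before the start of the gene, on the plus strand, and was the only match among 9 motifs searched on both strands. The half-site form AGGTCA had no match, nor had its variant AGTTCA or its variant GGGTCA. The other motifs were the TATA box (TATAAA), the CCAAT box, the E-box CACGTG, the D-box TTATGTAA and the C/EBP palindrome TTGCGCAA. GGTTCA is held by 8.85% of 32851 mouse promoter windows of the same length, and any of the 4 half-site forms by 38.6%. GGTTCA and GGGTCA were added after the sequence had been seen. A match is a description of letters, and the absence of the other motifs says only that they are not in this window.

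Counts of 26015 of the 26031 gene identifiers were at hand together for the 6 HFD vehicle and HFD libraries, called complete below. Their totals over these genes were 19773547 to 22039805 and 7466378 to 38161486 reads. Totals of the others, estimated from size factors, were 11500000 to 35400000 for HFD PCN and 15100000 to 22300000 for Chow. Albumin averaged 696525 ± 240524 normalized counts in HFD PCN livers, 1085941 ± 293884 in HFD vehicle, 1213071 ± 182577 in HFD and 1497963 ± 86120 in Chow livers (SD, n = 3 each), so the libraries carry the defining marker of liver. The PXR target Cyp3a11 averaged 668282 ± 283288 normalized counts in HFD PCN livers and 10422 ± 9760 in HFD vehicle livers. In a principal component analysis of the 6 complete libraries HFD vehicle replicate 55 and HFD replicate 38, the shallowest library, stood apart, with scores on the second component (34.5% of the variance) of 42.2 and 42.7, where the other 4 scored -25.6 to -16.2. Cfd ratios that rest on these libraries are given without them as well. So are the sums of macrophage, stellate and endothelial markers, the medians of the pathway and lipid lists and the folds named for HFD vehicle against HFD, a setting chosen after seeing the data. Calls of list members are those of all libraries.

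Cfd was nearly undetectable in PCN livers and readily detected in the other livers on the high-fat diet. Raw counts were 7, 4 and 1 in HFD PCN replicates 5, 11 and 27. They were 66, 119 and 201 in HFD vehicle replicates 15, 23 and 55, and 725, 377 and 74 in HFD replicates 4, 30 and 38. The Chow replicates 8, 17 and 19 had 117, 28 and 8 counts. Depth differed between these libraries, so levels below are normalized counts, that is counts divided by the size factor of the library.

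On that scale the PCN livers had 3.8, 6.7 and 1.0 normalized counts in replicates 5, 11 and 27. The 95% Poisson interval of the highest of them, 1.8 to 17.3, rests on 4 reads. The HFD vehicle livers had 62.4, 118.0 and 204.6 in replicates 15, 23 and 55, and the HFD livers 359.8, 307.3 and 164.2 in replicates 4, 30 and 38. The Chow livers had 101.3, 35.7 and 8.8 in replicates 8, 17 and 19. The PCN livers were thus the 3 lowest of the 12, and Chow replicate 19 was next, with an interval of 3.8 to 17.4 that covers the PCN replicate 11 value. Intervals cover counting error only.

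**Figure D1:**
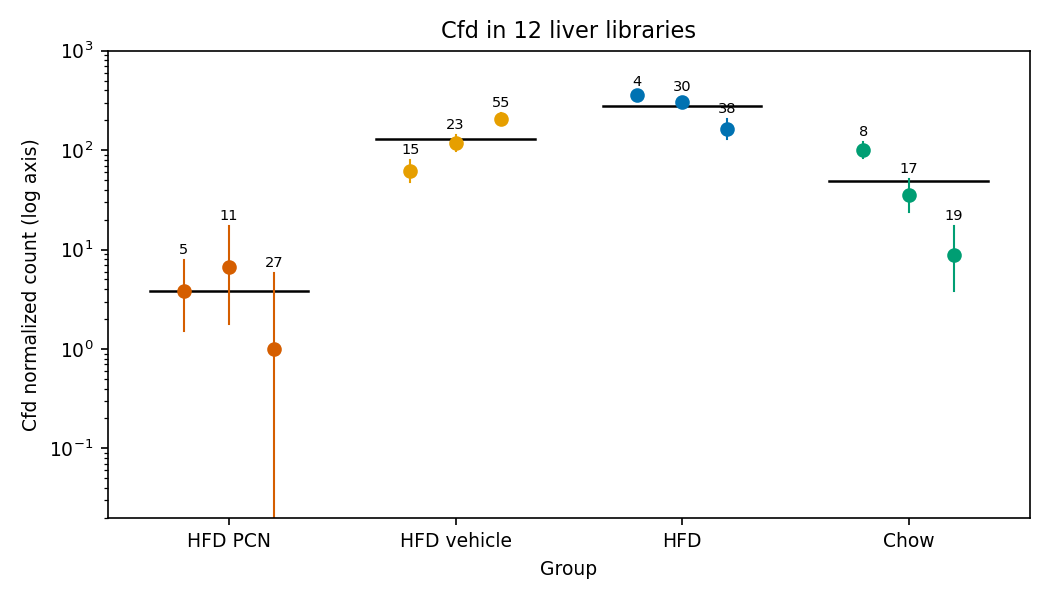
Normalized Cfd counts (vertical log axis) in the 12 libraries by group, with 95% Poisson intervals as vertical bars, replicate numbers above them and group means as horizontal lines. The interval of HFD PCN replicate 27, which had 1 read, runs below the axis. The PCN libraries lie at 1.0 to 6.7, under every HFD vehicle library (62.4 to 204.6).

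In order of level, HFD replicates 4 and 30 came first, then HFD vehicle 55, HFD 38, HFD vehicle 23, Chow 8, HFD vehicle 15, Chow 17 and Chow 19, and last HFD PCN 11, 5 and 27. The plot of levels by library shows that neighbouring groups in this order interleave: HFD vehicle replicate 55 lay above HFD replicate 38, and Chow replicate 8 lay above HFD vehicle replicate 15. Group means were 3.87 ± 2.85 normalized counts in HFD PCN, 128 ± 71.7 in HFD vehicle, 277 ± 101 in HFD and 48.6 ± 47.6 in Chow livers (SD, n = 3 each). Of neighbouring groups, the HFD vehicle libraries overlapped those of HFD and those of Chow. Neither difference reached an adjusted p under 0.05 in the edgeR tests below, except HFD vehicle against HFD without the expression filter. The unadjusted edgeR p of HFD vehicle against HFD was 0.0292.

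Livers of 1 group differed widely in Cfd outside the PCN group. The highest library was 3.28 times the lowest in HFD vehicle, 2.19 times in HFD and 11.5 times in Chow. In HFD PCN the ratio of 6.48 rests on 4 reads against 1, with Poisson intervals that overlap. In the 6 complete libraries the biological coefficient of variation that edgeR fitted for Cfd was 0.366. The median was 0.165 over 1983 genes of like abundance, 97.1% of which had a lower value than Cfd. Counting error is smaller than this spread: the Poisson intervals of the lowest and the highest library do not meet within the HFD vehicle group or within the HFD group.

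Relative to HFD vehicle livers the mean in PCN livers was 33.2-fold lower, and all 3 PCN libraries lay below all 3 vehicle libraries. From pooled counts of 12 and 386 the level was 35.7-fold lower, with a 95% counting interval of 20.2 to 69.7. The authors' deposited table of this comparison, in which 0.642% of 25876 genes were called lower at an adjusted p under 0.05, lists Cfd at a log2 change of -2.91 (standard error 0.33), a value shrunk toward 0. By ratio of means Cfd ranked 3 among the 166 genes called lower and 1 among the 145 with a mean count of at least 50. Just beside it stood Gm48199 above and Cidea below. These ranks describe how the gene was chosen and carry no test.

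The distance was larger against uninjected HFD livers and smaller against Chow livers, which share the same PCN libraries. The PCN mean was 71.7-fold lower than the HFD mean, and 89.9-fold lower from pooled counts (12 and 1176; interval 51.3 to 174). It was 12.6-fold lower than the Chow mean, and 15.2-fold lower from pooled counts (12 and 153; interval 8.45 to 30.0). No PCN library reached any HFD or Chow library. In the authors' deposited tables, where 1.26% and 3.66% of genes were called lower, the log2 changes of Cfd were -4.27 (standard error 0.30) against HFD and -1.86 (0.39) against Chow. Leaving out Chow replicate 8 made the PCN level 5.77-fold lower than Chow, and leaving out PCN replicate 11 gave a log2 ratio of -4.32. Against HFD it was 114-fold lower without PCN replicate 11, and 86.3-fold lower without HFD replicate 38. Against HFD vehicle it was 23.3-fold lower without vehicle replicate 55 and 52.8-fold lower without PCN replicate 11. In bulk tissue, fewer cells of a type and less RNA per cell cannot be told apart.

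**Figure D2:**
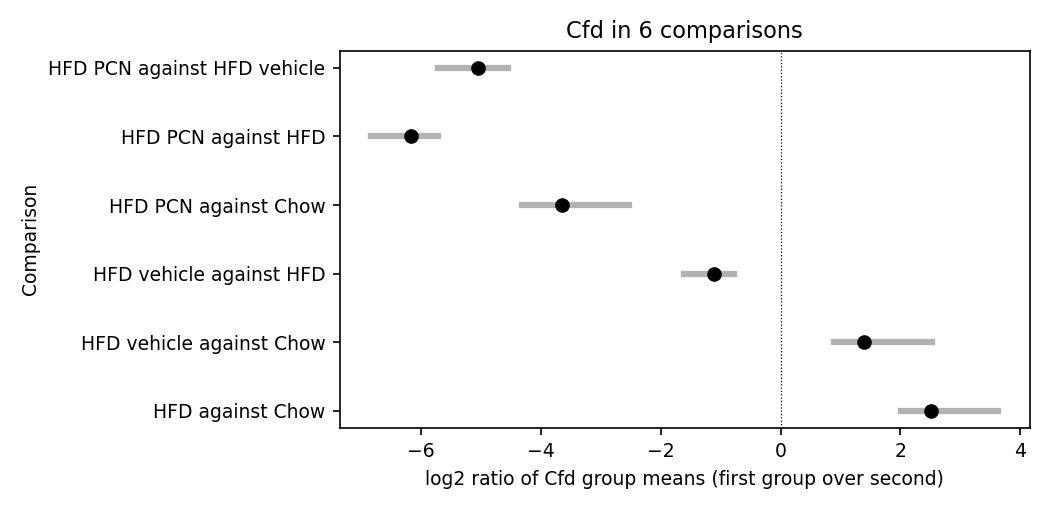
Log2 ratios of Cfd group means, first group over second (points), with the range when each library is left out in turn (grey bars). The 3 PCN ratios are -5.05, -6.16 and -3.65, HFD vehicle against HFD is -1.11, and the ratios of HFD vehicle and HFD against Chow are 1.40 and 2.51.

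The comparison of injected vehicle with no injection uses no PCN liver. Cfd averaged 2.16-fold lower in HFD vehicle livers than in HFD livers, and 8 of the 9 pairs of a vehicle and an HFD library had the lower value in the vehicle library. The edgeR quasi-likelihood test of the counts gave a log2 change of -1.13 (standard error 0.43), with a Benjamini-Hochberg adjusted p of 0.357 over 13775 genes. That test called 1 gene (0.00726%), and 1725 genes, Cfd among them, had an unadjusted p under 0.05. An exact two-sided permutation test gave p = 0.2, where the smallest p that 3 against 3 libraries allow is 0.1. The difference thus did not pass the threshold. Without the expression filter the adjusted p of the edgeR test was 0.0397, past the threshold. Without vehicle replicate 55 the log2 change was -1.66 (adjusted p = 0.235 by edgeR), and without HFD replicate 38 it was -1.37 (adjusted p = 0.418 by edgeR).

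HFD against Chow compares the diets in livers labelled untreated. Cfd averaged 5.70-fold higher in HFD livers, and the lowest HFD library (164.2) lay above the highest Chow library (101.3). The exact two-sided permutation test gave p = 0.1, the smallest this design allows. The authors' deposited table of this comparison gives values for 1226 genes, all with an adjusted p under 0.05 (4.85% of the genes behind the adjustment), and Cfd is not among them. An edgeR quasi-likelihood test of the counts at hand gave a log2 change of 2.49 (standard error 0.65) and an adjusted p of 0.178. Without Chow replicate 8, the highest of its group, the HFD mean was 12.4-fold higher and the adjusted p of that edgeR test 0.0935. Without HFD replicate 38 the mean was 6.86-fold higher (adjusted p = 0.292 by edgeR). Leaving out any other library in turn gave 4.04-fold (without Chow replicate 19) to 5.39-fold (without HFD replicate 30). The adjusted p-values of these edgeR tests were 0.294 (without Chow replicate 19) to 0.535 (without Chow replicate 17).

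HFD vehicle livers averaged 2.64-fold more Cfd than Chow livers, and the groups overlapped, with 1 of 9 pairs in the other direction. The exact two-sided permutation test gave p = 0.2, and edgeR a log2 change of 1.36 with an adjusted p of 1. Cfd is not among the 790 genes (3.10% of those behind the adjustment) with values in that deposited table. The fold was 5.76 without Chow replicate 8 and 1.85 without vehicle replicate 55. The plot of ratios shows all 6 comparisons with these ranges.

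Cfd was read beside 7 other genes of its pathway. Levels per kb of exon allow a rough comparison of different genes. Exon length is the union over all GENCODE transcripts, 922 bases for Cfd and 9833 for Masp1. Where the union is longer than the transcript expressed, the level per kb is too low. Per kb of exon, Cfd had 4.19 ± 3.09 normalized counts in HFD PCN, 139 ± 77.7 in HFD vehicle, 301 ± 110 in HFD and 52.7 ± 51.6 in Chow livers (SD, n = 3). Its substrate factor B, encoded by Cfb, had 109 ± 21.7 per kb in HFD vehicle, 63.1 ± 11.8 in HFD and 61.6 ± 2.38 in Chow livers. C3, the central component, had 53127 ± 12463 per kb in HFD PCN, 72876 ± 13860 in HFD vehicle, 24192 ± 6207 in HFD and 35917 ± 2305 in Chow livers. Properdin, encoded by Cfp, which stabilises the C3-cleaving complex, had 190 ± 49.7 per kb in HFD vehicle and 265 ± 75.7 in HFD livers.

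Factor I (Cfi), the protease that inactivates C3b, had 5991 ± 307 in HFD vehicle, 4250.5 ± 676 in HFD and 4405 ± 66.1 in Chow livers. Cfhr2 and Cfhr3 had 2424 ± 495 and 251 ± 27.9 per kb in HFD vehicle livers, against 2238 ± 353 and 233 ± 69.1 in HFD livers. They belong to a family of similar genes, so reads may be split between copies. Masp1, whose splice product MASP-3 activates the proenzyme of factor D, had 428 ± 57.8 per kb in HFD PCN, 319 ± 4.27 in HFD vehicle, 280 ± 48.9 in HFD and 277 ± 11.5 in Chow livers.

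**Figure D3:**
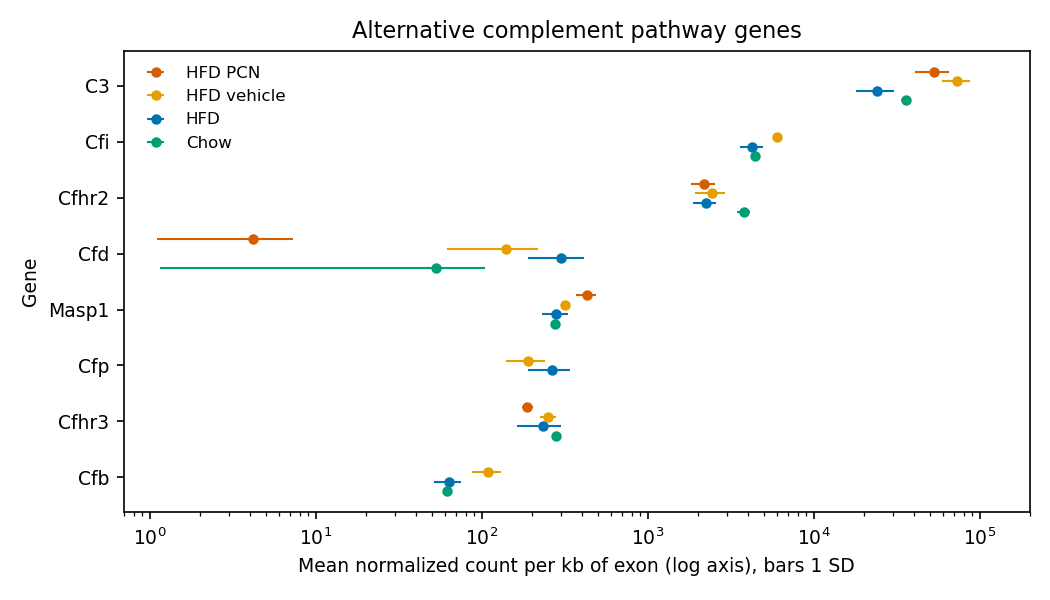
Mean normalized count per kb of exon (log axis) of 8 alternative pathway genes by group, with bars of 1 SD (n = 3). A missing point means that counts of the gene were not at hand in that group. The Cfd means run over 4.19 to 301, the lowest of them in PCN livers, where the gene was chosen for its low level.

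The plot of pathway genes shows C3 as the most abundant in every group. In HFD livers Cfd stood above Masp1, Cfp, Cfhr3 and Cfb per kb by group mean, with differences from Masp1, Cfp and Cfhr3 that are smaller than its SD. In PCN livers it was the lowest of the 5 with counts, which the choice of the gene fixes. The calls of the pathway genes differed in direction between comparisons. Between HFD PCN and HFD vehicle the authors' deposited table called Cfd lower and 0 of the 8 genes higher, with 1.71% of all genes called. Between HFD PCN and HFD it called C3 (2.20-fold) and Masp1 (1.53-fold) higher, of 1.9% of all genes called higher, and only Cfd lower (3.15% called in either direction). Between HFD PCN and Chow, C3 and Masp1 were called higher (4.43% of all genes) and Cfd, Cfhr2 and Cfhr3 lower (3.66%), with 8.09% called in either direction.

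Between HFD vehicle and HFD the deposited table called C3 (3.01-fold, and 2.73-fold without vehicle replicate 55 or 2.62-fold without HFD replicate 38) higher and 0 lower, where 0.281% of all genes were called higher and 0.511% lower (0.792% in all), as did DESeq2 refitted to the counts. In the edgeR test 0 of 8 passed, and 4 of 8 had an unadjusted p under 0.05, as had 12.5% of all genes. The median log2 ratio of the 8 genes was 0.15 (0.24 without vehicle replicate 55 and 0.03 without HFD replicate 38), against 0.02 over all 13775 genes, and Cfd and Cfp were the 2 with a ratio below 0. Between HFD vehicle and Chow, C3, Cfb and Cfi were called higher and Cfhr2 lower (1.72% and 1.38% of all genes). Between HFD and Chow, Cfhr2 was called lower, where 2.81% of all genes were called higher and 2.05% lower. Cfd was thus the gene of the list with the lowest ratio of PCN to vehicle among the 5 with counts in both groups, which the choice of the gene fixes.

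Of the other complement genes, 2 of 14 of the classical and lectin pathways had counts in PCN and vehicle livers, and 1, C2, was called higher (1.07% of all genes). Of the 7 terminal components 1, C9, was called lower (0.642% of all genes). Of the 14 receptors and regulators 0 were called. In HFD vehicle against HFD the deposited table called 1, 2 and 3 members of these lists higher and 0 lower (0.281% and 0.511% of all genes). There edgeR called 0 and had 5, 3 and 4 members at an unadjusted p under 0.05 (12.5% of all genes), and the DESeq2 refit called 3, 2 and 3 (2%).

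Fat cells are the main source of adipsin, so fat cell markers were read in the 6 complete libraries. Raw counts of Adipoq, the fat cell hormone adiponectin, were 1, 0 and 0 in HFD vehicle replicates 15, 23 and 55 and 1, 0 and 0 in HFD replicates 4, 30 and 38. Retn, which encodes resistin, had 0 counts in all 3 vehicle libraries and 3, 0 and 0 in HFD libraries. Plin1, the lipid droplet coat of fat cells, had 0, 1 and 3 counts in vehicle and 4, 1 and 0 in HFD libraries. Adipoq, Retn and Plin1 were thus at or near 0 in libraries where Cfd had 66 to 725 reads. Fabp4, a gene linked to PPARγ, is in the lipid storage list below and not in this one. It had 131.3, 154.7 and 80.4 normalized counts in vehicle and 285.4, 266.5 and 361.8 in HFD livers. The deposited tables called it lower in vehicle (2.49-fold) and in PCN against HFD livers, and higher in HFD against Chow. In PCN against vehicle (1.01-fold) and Chow (1.52-fold) it was not called, where Cfd was lower. Its part in the Cfd difference was not tested.

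Counts of the remaining markers of the fat cell list ranged from 0 to 648 in single libraries. Acvr1c had 0, 1 and 2 counts in vehicle and 1, 3 and 1 in HFD libraries, Adig 1, 4 and 6 against 14, 4 and 2, and Slc2a4, the insulin-responsive glucose transporter, 6, 5 and 1 against 14, 6 and 5. Tusc5 had 4, 25 and 3 counts in vehicle and 46, 7 and 10 in HFD libraries, Adrb3 75, 20 and 37 against 43, 19 and 11, and the lipase gene Lipe 321, 223 and 415 against 648, 386 and 167. The summed level of the 9 markers was 277 to 475 normalized counts in vehicle and 347 to 435 in HFD livers, ranges that overlap. Most of that sum is Lipe. The 6 markers below 20 normalized counts in every library, a subset chosen after the values were seen (all but Lipe, Adrb3 and Tusc5), summed to 7.56 to 12.2 normalized counts in vehicle and 11.4 to 18.4 in HFD livers. Of the 3 kept by the edgeR filter 0 were called, 0 had an unadjusted p under 0.05, and the deposited table and the DESeq2 refit called 0. In PCN and Chow livers counts of these markers were not analysed here, apart from Lipe in Chow, so their part in those differences was not tested.

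Markers of other cell types were read in the same 6 libraries, where edgeR called 0 members of each list. Over all genes, 12.5% of those tested had an unadjusted edgeR p under 0.05, the DESeq2 refit called 2%, and 0.792% were called in the deposited table. Macrophage markers summed to 6892 to 9983 normalized counts in vehicle and 9366 to 13855 in HFD livers, ranges that overlap, and 0 of 11 had an unadjusted p under 0.05. The low end was vehicle replicate 55 and the high end HFD replicate 38, and without both the sums were 9872 to 9983 in vehicle and 9366 to 9383 in HFD livers. Stellate cell markers summed to 6387 to 10355 in vehicle and 10793 to 13795 in HFD livers. Endothelial markers summed to 4977 to 7509 in vehicle and 7581 to 8534 in HFD livers. The stellate and endothelial ranges do not overlap and are lower in vehicle, as is the mean of Cfd, also without vehicle replicate 55 or HFD replicate 38. The endothelial gap, 7509 against 7581, is narrow. Standing apart was not particular to these cell types. The sums of every complement list also stood apart, but higher in vehicle. For the alternative pathway they were 325154 to 464904 in vehicle and 102317 to 163543 in HFD livers. The lipid storage list below stood apart too, lower in vehicle (14417 to 19702 against 26852 to 37169). Sums of PXR targets and of clock genes overlapped. How often sums of other genes stand apart in this way was not tested. The part of both marker lists in the Cfd difference was not tested either. Of the 10 stellate markers 3 had an unadjusted p under 0.05 by edgeR, with 0 deposited calls and 1 by the DESeq2 refit (Colec11). Of the 8 endothelial markers 3 had one, with Lyve1 and Cdh5 called lower in the deposited table and 3 called by the refit. Of these 8 markers 6 had a ratio below 0. The means of Kdr (896 against 749) and Clec4g (588 against 575) were higher in vehicle than in HFD livers. Stab2 and Stab1 weighed most in the endothelial sums, with means of 2143 and 1300 in vehicle and 2508 and 1611 in HFD livers. Neutrophil markers summed to 97.2 to 563 in vehicle and 113 to 200 in HFD livers, cholangiocyte markers to 352 to 799 and 471 to 1057, and hepatocyte markers to 1251295 to 1866200 and 1399423 to 1897612. Of these 3 lists, 0 of 4, 1 of 5 and 2 of 8 members kept by the filter had an unadjusted edgeR p under 0.05, the deposited table called 0, 1 and 0, and the refit called 1, 1 and 0.

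Genes of lipid storage linked to PPARγ, the receptor that drives Cfd in fat cells, were read as a list of 13. In HFD against Chow 9 were called higher in the deposited table and 0 lower (2.81% and 2.05% of all genes), among them Cidea (29.2-fold) and Cidec (7.25-fold), which code for lipid droplet proteins, and Mogat1 (4.31-fold), an enzyme of glyceride synthesis. In HFD PCN against HFD 9 were called lower and 0 higher (1.26% and 1.9% of all genes), with Cidea 113-fold, Cidec 13.5-fold, Mogat1 6.11-fold and Plin4 2.77-fold lower. In HFD PCN against HFD vehicle only Cidea (26.7-fold) and Plin4 (1.55-fold), a lipid droplet coat protein, were called lower and 0 of the 12 with counts were called higher (0.642% and 1.07% of all genes). In HFD PCN against Chow, 2 were called higher (Pparg and Vldlr) and 2 lower (Plin2 and Plin5), with 4.43% and 3.66% of all genes called, and Cidea, Cidec and Mogat1 were not called.

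In HFD vehicle against HFD the deposited table called 5 of 13 lower (0.511% of all genes), of which Cidec was 6.43-fold, Cidea 4.23-fold, Mogat1 2.96-fold and G0s2, an inhibitor of fat breakdown, 2.67-fold lower. The edgeR test called 0 and had 8 at an unadjusted p under 0.05 (12.5% of all genes), and the DESeq2 refit called 6 (2%). The median log2 ratio of the list was -0.83, against 0.02 over all genes tested, and 12 of 13 ratios were below 0. Without vehicle replicate 55 the median was -0.91, and without HFD replicate 38 it was -0.77, with Cidec 7.23-fold and 4.93-fold, Cidea 5.03-fold and 4.09-fold, Mogat1 2.61-fold and 3.20-fold, and G0s2 3.08-fold and 1.94-fold lower in these settings. Pparg itself averaged 427 ± 111 normalized counts in HFD PCN, 361 ± 115 in HFD vehicle, 300 ± 43.0 in HFD and 219 ± 41.2 in Chow livers (SD, n = 3 each), and was called in HFD PCN against Chow alone, as higher. Its mean was 1.19-fold higher in PCN than in vehicle livers, without a call.

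PXR targets and clock genes were read as checks of treatment and of sampling time. Of 14 PXR targets the deposited tables called 10 higher and 1 (Alas1) lower in HFD PCN against HFD vehicle, where 1.07% and 0.642% of all genes were called. They called 11 higher and 0 lower against HFD (1.9% and 1.26% of all genes), and 12 higher and 0 lower against Chow (4.43% and 3.66%). In HFD vehicle against HFD 1 was called higher and 1 lower (0.281% and 0.511%), edgeR called 0 with 6 at an unadjusted p under 0.05 (12.5% of all genes), and the DESeq2 refit called 3 (2%). Of 19 clock and output genes 0 were called higher and 1, Nfil3, lower in HFD PCN against HFD vehicle (1.07% and 0.642% of all genes). In HFD vehicle against HFD 18 had counts in both groups, without Nr1d1, and 17 were kept by the edgeR filter. There 0 were called by the deposited table, by edgeR and by the refit, and 2 had an unadjusted edgeR p under 0.05 (12.5% of all genes). In HFD against Chow 5 were called higher, among them Per2 and Per3, and 3 lower, Arntl, Clock and Nr1d1 (2.81% and 2.05% of all genes). In HFD vehicle against Chow 5 were called higher and 2 lower (1.72% and 1.38%), in HFD PCN against Chow 4 higher and 5 lower (4.43% and 3.66%), and in HFD PCN against HFD 0 higher and 2 lower, Arntl and Clock (1.9% and 1.26%). Sampling time is not given in the labels, and the part of such differences in the Cfd levels was not tested.

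The genes whose profile was most like that of Cfd were ranked by the mean absolute difference, over the 12 libraries, between centred log2(normalized count + 1) values. The ranking held 2170 genes with counts in all 12 libraries and a mean of at least 10. All of them were called in some comparison by the authors, so they are no sample of all genes. Cidea was nearest, at 0.94 log2 units, then Gadd45g, a gene of stress-induced growth arrest, at 1.14, the pseudogene Mrgprb11-ps at 1.14 and Mogat1 at 1.28. Cdkn1a, the cell cycle inhibitor p21, stood at 1.32, Cidec at 1.36, Scn4b, a sodium channel subunit, at 1.38 and Sema5b, a semaphorin, at 1.38. The median over all genes ranked was 2.16.

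Cidea had 1.1, 1.7 and 1.0 normalized counts in PCN replicates 5, 11 and 27, and 7.6, 49.6 and 44.8 in HFD vehicle replicates 15, 23 and 55. It had 207.5, 70.1 and 153.1 in HFD replicates 4, 30 and 38, and 11.3, 1.3 and 2.2 in Chow replicates 8, 17 and 19. As for Cfd, the PCN libraries were all below the vehicle libraries, but the Chow library 17 lay among the PCN values, and the HFD and vehicle libraries did not overlap.

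Gadd45g had 20.7, 82.5 and 64.5 normalized counts in PCN livers, 799.4, 423.3 and 948.5 in vehicle, 457.6, 1014.8 and 308.5 in HFD and 490.9, 324.2 and 252.0 in Chow livers. It was low in PCN livers, and Chow and HFD libraries overlapped, which they did not for Cfd. Mogat1 had 30.6, 26.9 and 27.0 in PCN livers, 38.7, 93.2 and 42.7 in vehicle, 212.9, 159.8 and 144.3 in HFD and 63.2, 44.7 and 12.2 in Chow livers. Its PCN libraries lay within the Chow range, above Chow replicate 19, so it shared the high HFD level of Cfd and not its distance between PCN and Chow.

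**Figure D4:**
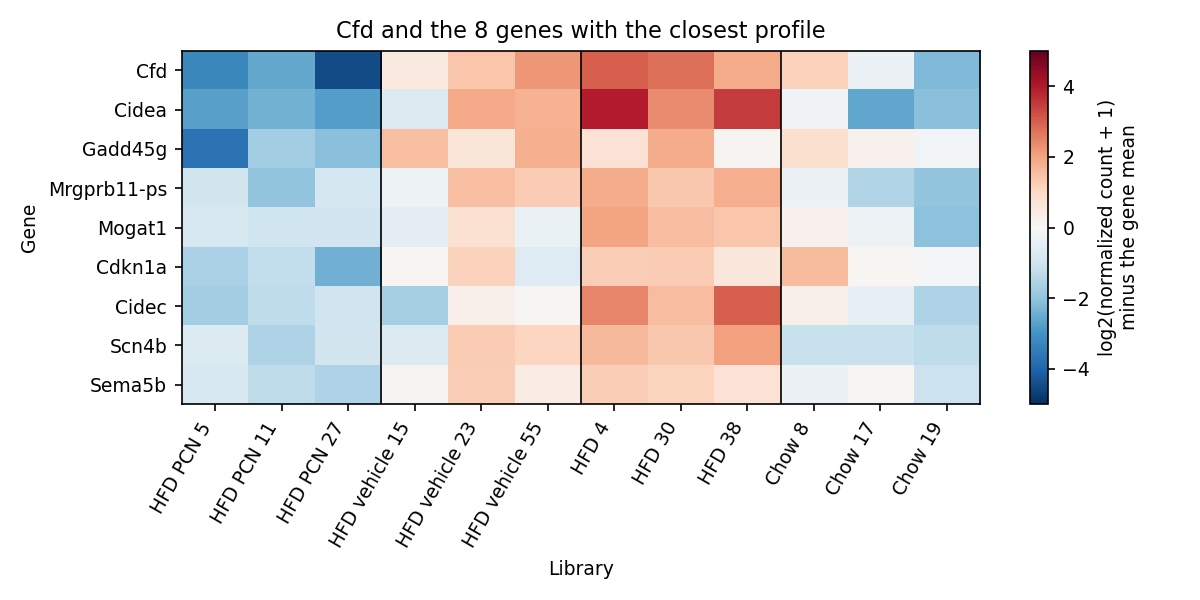
Log2(normalized count + 1) minus the gene mean over 12 libraries (colour), for Cfd in the top row and the 8 genes with the nearest profile below it, in order of likeness. All 9 genes are low in PCN libraries, as the choice by likeness to Cfd implies, and they differ in Chow.

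The heat map of nearest profiles shows low PCN columns, which follow from the choice of the genes for their likeness to Cfd. The HFD columns are mostly high. An exception is Gadd45g in HFD replicate 38, whose 308.5 normalized counts lay below all 3 vehicle libraries. Scn4b was as low in Chow as in PCN livers. Likeness depended on the libraries used. With a pseudocount of 5, 7 of the 8 genes were shared, and with no minimum on the mean 5 were, Grin3b then being second. Over the 6 complete libraries alone, with 13774 genes ranked, 0 were shared and Cidea ranked 10348.

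Cfd has 19 other genes of the tables within 100 kb, 4 of them with counts in all 12 libraries. Of the 19, 16 had group means (plus 1) within 2-fold between HFD vehicle and HFD livers. Only 10 of the 19 had means of at least 10 in both groups, and at lower levels the added 1 draws the ratio toward 1. The share of all genes within 2-fold was not counted. The nearest well expressed gene, Med16, a Mediator subunit that ends 2053 bases downstream on the other strand, had 368.5, 402.5 and 450.8 normalized counts in vehicle and 396.0, 447.5 and 295.2 in HFD livers, which overlap. Ptbp1, a splicing regulator upstream, had 1341, 1363 and 1231 in PCN, 1034, 1077 and 1467 in vehicle, 982, 969 and 954 in HFD and 1271, 1368 and 1250 in Chow livers. It was called higher in PCN against HFD and lower in HFD against Chow, the other direction from Cfd in both.

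A pair of neighbours, Prtn3 and Grin3b, had counts in all 12 libraries and differed between groups. Prtn3, which encodes the neutrophil protease proteinase 3 and lies 7679 bases upstream on the same strand, had 34.4, 13.5 and 12.5 normalized counts in PCN livers, 39.7, 8.9 and 251.4 in vehicle, 0.5, 0.8 and 6.7 in HFD and 0.9, 1.3 and 0 in Chow livers. It was thus highest in the 6 injected livers, and was called higher in PCN against HFD and against Chow in the deposited tables. In vehicle against HFD its counts were below the edgeR filter, and without that filter edgeR gave an adjusted p of 0.000613, the DESeq2 refit gave 0.0354 and the adjusted p in the authors' deposited table was 0.669. Without replicate 55 the other vehicle libraries, at 39.7 and 8.9, still lay above the HFD libraries. The value of 8.9 rests on 9 reads in vehicle replicate 23, and the highest HFD value, 6.7, on 3 reads in HFD replicate 38. Prtn3 passed the edgeR filter when vehicle replicate 23 or any HFD replicate was left out. The adjusted p of these edgeR tests was 0.110 (without vehicle replicate 23) to 0.684 (without HFD replicate 4), so it was not called. Elane, the neutrophil elastase gene that lies 2638 bases upstream of Cfd, had at most 6.1 normalized counts in a vehicle library and 0.5 in an HFD library.

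Grin3b, which encodes a glutamate receptor subunit and lies 78060 bases downstream on the same strand, had 1.1, 1.7 and 1.0 normalized counts in PCN livers, 1.9, 10.9 and 21.4 in vehicle, 20.3, 20.4 and 13.3 in HFD and 3.5, 1.3 and 0 in Chow livers. Without vehicle replicate 55 its mean in vehicle was 2.82-fold lower than in HFD livers, against 1.58-fold with all libraries and 1.79-fold without HFD replicate 38. Like Cfd it was low in PCN livers and above Chow in HFD livers, at levels that rest on few reads. The deposited tables called it lower in PCN against HFD and higher in HFD against Chow. Cnn2, a calponin gene 95929 bases downstream, had 212.9, 180.2 and 130.0 in PCN livers, 78.4, 95.2 and 62.1 in vehicle and 152.4, 176.1 and 153.2 in HFD livers. It was 2.04-fold lower in vehicle than in HFD livers, 1.85-fold without vehicle replicate 55 and 2.09-fold without HFD replicate 38, and was called lower there (deposited adjusted p = 0.0115; edgeR adjusted p = 0.160) and higher in PCN against vehicle, where Cfd was lower.

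**Figure D5:**
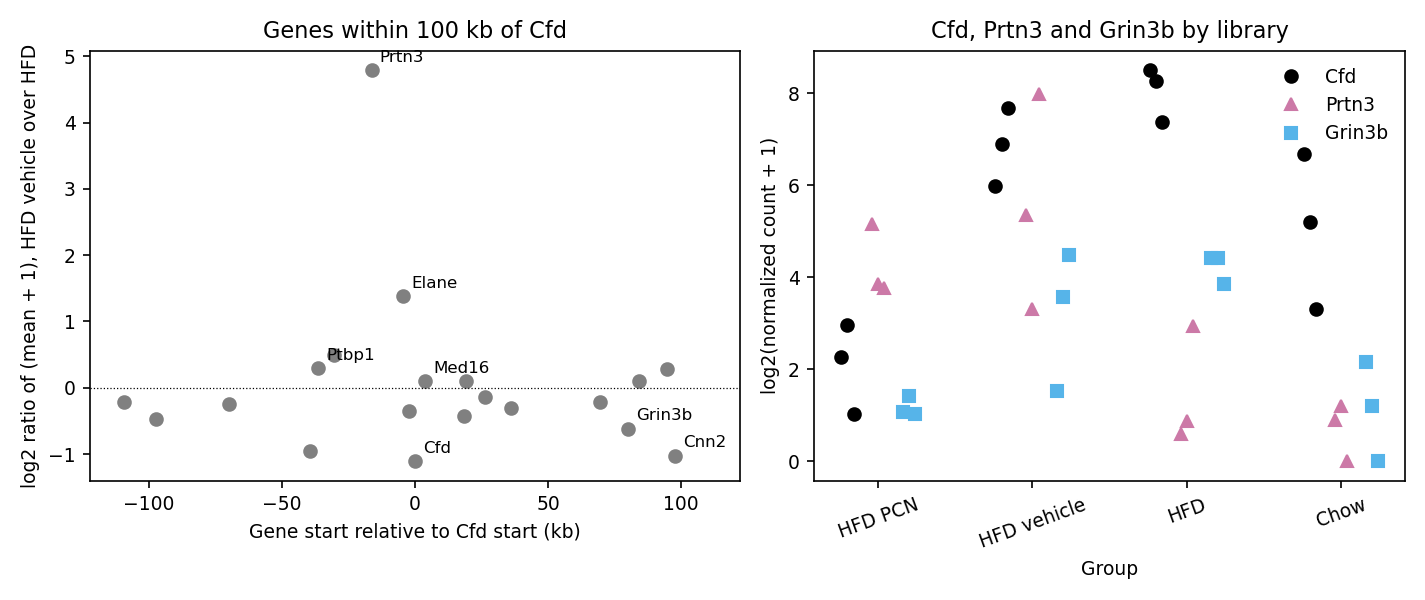
Left, log2 ratio of (mean + 1) in HFD vehicle over HFD livers for Cfd and 19 genes within 100 kb, by distance of the gene start from that of Cfd. Right, log2(normalized count + 1) of Cfd, Prtn3 and Grin3b in each library by group: Prtn3 is high in the injected groups and low in HFD and Chow, and Grin3b is highest in HFD and some vehicle livers.

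The plot of neighbours shows both. Among the 10 neighbours with means of at least 10 in both groups, the ratios of vehicle to HFD ran over -1.02 (Cnn2) to 0.30 (Ptbp1), beside -1.10 for Cfd on the same scale.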

How the data were processed

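Per the labels, total RNA of 12 liver samples was treated with DNase and made into Illumina libraries. HISAT2, HTSeq, DESeq2 and the build GRCm38 (mm10) are named in the submitters' processing notes. Their versions and the strand setting are not given in the sources used here. What the authors deposited are 6 tables, each of a pair of groups, with the raw read counts of 6 libraries for every gene listed. Per the file headers they also hold a mean normalized count, a log2 fold change with its standard error, a p-value and an adjusted p-value. The table of HFD vehicle against HFD lists 26015 genes, called or not, and is named complete here. It holds nearly all of the 26031 identifiers, but not Nr1d1. The other 5 give values only for genes with an adjusted p under 0.05, so Cfd has a row in 4 tables.

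The 12 size factors were recovered from the deposited means and counts (they differed by at most 0.52% from table to table), and normalized counts are counts divided by them. HFD vehicle against HFD was tested with edgeR 4.0.16 (quasi-likelihood test, TMM, filterByExpr, Benjamini-Hochberg adjustment over 13775 genes), with DESeq2 1.42.0 refitted as an alternative. For the Chow comparisons edgeR used the genes at hand, the deposited size factors and the dispersion trend of the complete table, and adjusted over the 25258 or 25521 genes estimated to lie behind the authors' adjustment. A gene not at hand can only raise the rank of a p-value, so the adjustment step by itself gives upper limits. The p-values behind it rest partly on a dispersion taken from HFD vehicle and HFD libraries. Cfd spread more widely in Chow (SD of log2 values 1.69, against 0.60 in HFD and 0.85 in HFD vehicle). The adjusted p-values may therefore be too low as well as too high. The edgeR steps were tested on simulated data, with results not reported here. Each simulated gene had the dispersion of the trend, and Cfd varied more than most genes of like abundance. The simulation thus does not show how the test performs for a gene as variable as Cfd. Starts were raised by 1, since the tables count from 0. Exonic lengths are from GENCODE M21 (GRCm38). With 3 against 3 libraries an exact permutation test (two-sided, of the mean log2(normalized count + 1)) cannot go below p = 0.1.

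The gene, the 14 lists (153 entries), the marker genes and the comparisons were chosen with earlier results of these data known. Named genes are Cfd, the 8 nearest profiles, every gene within 100 kb with emphasis on those that moved or lie nearest (chosen after their values were seen), members of the complement and fat cell lists, and up to 4 called members of lists with at least 3. List members given as examples in other places were chosen after their values were seen. Some genes are not reported here.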

Additional observations from a re-analysis of the deposited data

How the results depend on the processing

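Of 52 alternatives to the Cfd results and the likeness ranking, 49 kept direction and side of the threshold or moved by less than the spread between replicates, and 0 reversed. In the PCN comparisons and in HFD against Chow the groups did not overlap, so leaving out a library could not reverse the direction. The spread was wide in Chow: without Chow replicate 8 the PCN level moved from 12.6-fold to 5.77-fold lower than Chow, and still counted as within it. In HFD vehicle against HFD the log2 change was -1.17 with no expression filter (adjusted p = 0.0397 by edgeR), past the threshold. It was -1.13 (0.358) with DESeq2 size factors in edgeR, -1.12 (0.149) with DESeq2 refitted, -0.79 (0.326) in the authors' deposited table and -1.25 (0.249) with library totals as scaling, an alternative chosen after seeing the data. Genes called in that comparison numbered 1 by edgeR, 283 with no filter, 268 by the DESeq2 refit and 206 in the deposited table.

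Leaving out each library in turn gave log2 values of -1.66 to -0.80 for HFD vehicle against HFD (adjusted p 0.235 to 0.774 by edgeR), -5.72 to -4.54 for HFD PCN against HFD vehicle, -6.83 to -5.71 for HFD PCN against HFD, -4.32 to -2.53 for HFD PCN against Chow, 0.89 to 2.53 for HFD vehicle against Chow and 2.02 to 3.64 for HFD against Chow. Group medians gave -4.95, -6.33 and -3.23 for the 3 PCN comparisons. Library totals as scaling were not run for the Chow comparisons, since counts of all genes in Chow were not used here.

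No paired analysis was possible because the replicate numbers differ between all groups.

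The PCN levels rest on 12 reads in 3 libraries, so differences among PCN livers were not detectable at this depth. Levels near 1 normalized count are set by single reads. Counts of most genes in PCN and Chow livers were not analysed here, which limits the likeness ranking, the marker lists and the neighbours to genes called by the authors.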
